A study of Mus musculus with 12 samples.

Results

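Synuclein fibrils were compared with saline 12 weeks after injection, in 6 of the 12 libraries of the series, chosen by their labels: 3 saline and 3 synuclein. The saline group held C57BL/6 mice given saline on both sides of the substantia nigra, and the synuclein group held C57BL/6 mice given preformed fibrils of G51D α-synuclein, 20 µg at 5 µg/µL, by the same route. Midbrain tissue was dissected, and cells positive for hKO1, an orange fluorescent reporter that here marks dopaminergic neurons, were sorted into TRIzol LS and amplified with a low-input SMARTer kit. The 2 matching groups at 7 weeks, with 3 libraries each, had the same strain, injections and sort, and serve below for comparison. Neither the promoter that drives hKO1, nor the age of the mice, nor the number of animals behind a library is given in the sources used here, so p-values measure the spread between libraries, which may be technical.

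Preformed fibrils are short, sonicated aggregates of α-synuclein that enter neurons and template the misfolding of the neuron's own protein. G51D is a substitution linked to familial Parkinson's disease. Dopaminergic neurons of the substantia nigra are the cells lost in that disease, and misfolded protein in them is handled by cytosolic chaperones, the proteasome and the lysosome, while glia and vessels around them can respond with inflammatory and interferon programmes.

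Depth at 12 weeks was 2850321, 2590176 and 3915762 fragments for the 3 saline replicates. It was 3421430, 5022488 and 4214154 for the 3 synuclein replicates. The second synuclein library, the deepest of them, had the fewest genes with a fragment, 17409 against 19960 to 21135 in the other 5, and lay apart from the other 11 libraries on the first principal component of the series. Replicate 1 of synuclein lay apart on the second. Several lists and genes are therefore also given without both, which leaves 1 synuclein library, assumed to vary like the other groups. Levels are in CPM, counts scaled to the depth of the library. Folds are log2 values, synuclein over saline, with the standard error after ±. Calls rest on edgeR's quasi-likelihood test with Benjamini-Hochberg adjustment over 17380 genes.

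RNA of several cell types was present, and the markers of oligodendrocytes and endothelium summed far higher than those of dopaminergic neurons. The dopaminergic identity list, which holds transcription factors and markers of these neurons, summed to 711, 434 and 352 CPM in saline and 501, 468 and 403 in synuclein. A separate list of 13 genes of dopamine synthesis, storage and uptake, not plotted, summed to 4112, 2468 and 3419 CPM in saline. In synuclein it summed to 3318, 2997 and 2445. Oligodendrocyte markers summed to 29370 to 53010 CPM in saline and 32150 to 46970 in synuclein, and endothelial markers to 16380 to 22750 and 18400 to 29990. Astrocyte markers lay between 665 and 1201 CPM in the 6 libraries, microglial markers between 139 and 328, and lymphocyte markers between 8.22 and 35.7. The plot of marker sums shows the oligodendrocyte and endothelial lists above all others in each library. Fewer cells of a type and less RNA per cell cannot be told apart in such libraries. Folds given below therefore cannot be assigned to dopaminergic neurons.

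**Figure D1:**
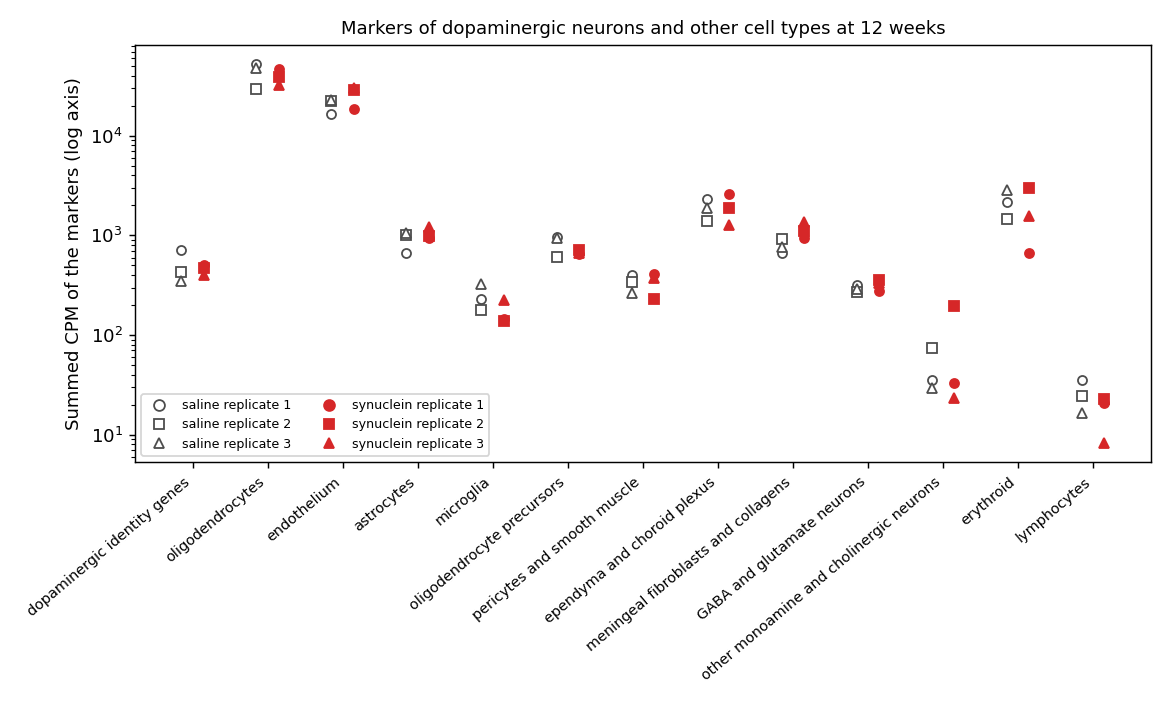
Summed CPM (log axis) of the tested markers of dopaminergic neurons and of other cell types, with 1 symbol per library at 12 weeks, open for saline and red for synuclein. Oligodendrocyte and endothelial sums lie above those of the other lists in every library, and the markers of other monoamine and cholinergic neurons reach 195 CPM in replicate 2 of synuclein against 23.5 to 74.4 in the rest.

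The dopaminergic genes differed little between the groups at 12 weeks relative to their spread. Th, tyrosine hydroxylase, which makes L-DOPA (chromosome 7, 142892776 to 142899966), was at 334, 217 and 161 CPM in saline and 169, 256 and 173 in synuclein, a fold of −0.25 ± 0.38. Slc6a3, the dopamine transporter (chromosome 13, 73536747 to 73578672), was at 319, 140 and 140 CPM in saline and 91.7, 190 and 141 in synuclein, a fold of −0.50 ± 0.42. In both genes replicate 1 of saline was the highest library, and the 2 groups overlapped. Without that library the folds were 0.088 for Th and 0.019 for Slc6a3, and without both synuclein libraries that lay apart they were −0.44 and −0.49.

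Slc18a2, which loads dopamine into vesicles, had a fold of −0.18 ± 0.46. Ddc, which converts L-DOPA to dopamine and shares its locus with another gene in the deposited files, was at −0.09 ± 0.35. None of the 4 passed the test (edgeR adjusted p of 0.903 to 0.983). Over 13 genes of dopamine synthesis, storage and uptake the median fold was −0.02, with 6 higher and 7 lower, and over 19 identity genes it was 0.05, with 11 higher and 8 lower. No member of either list had an unadjusted p under 0.05 or groups that did not overlap. Drd2, the dopamine autoreceptor, was at 17.1, 4.27 and 6.60 CPM in saline and 4.51, 2.19 and 4.25 in synuclein (fold −1.34 ± 0.74), with replicate 1 of saline again the highest. Gfra1, the co-receptor for the survival factor GDNF, was at −1.13 ± 0.63, and Nr4a2, a transcription factor needed for dopaminergic fate, at −0.01 ± 0.45. Without both synuclein libraries that lay apart, the median of the identity genes was −0.42, with 4 higher and 15 lower.

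Across the genome, edgeR called 0 genes at 12 weeks (0% of 17380), with 394 higher (2.27%) and 574 lower (3.3%) at an unadjusted p under 0.05. DESeq2 called 12 (0.069%), limma-voom 0, and limma-trend on the deposited FPKM 2. By sign alone 8227 genes (47.3%) were higher in synuclein and 9153 (52.7%) lower. The median fold of all genes was −0.03. Upper-quartile scaling moved it to −0.115 and the split at an unadjusted p under 0.05 from 394 higher and 574 lower to 257 and 686. The 3 synuclein libraries all lay above the 3 saline libraries for 697 genes (4.01%) and all below for 1159 (6.67%). Of those 1159 genes, 688 had a mean under 10 CPM, 271 were at 0 fragments in replicate 2 of synuclein, and 696 had their lowest value there. Of the 697, 361 were highest in the same library.

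The genes given here in detail are the 15 with the smallest p in each direction among genes with at least 10 CPM on average and groups that did not overlap, so their separation is a condition of the choice. Their edgeR adjusted p-values ran from 0.83 to 0.887. Xpc, which recognises lesions in nucleotide excision repair (chromosome 6, 91489307 to 91515888), was at 12.2, 10.3 and 21.3 CPM in saline and 44.6, 54.9 and 30.3 in synuclein, a fold of 1.57 ± 0.39. DESeq2 called it at an adjusted p of 0.0482. Tdp2, which frees DNA ends from trapped topoisomerase (chromosome 13, 24831659 to 24842153), was at 9.57, 9.12 and 10.6 CPM in saline and 39.8, 23.3 and 26.6 in synuclein (1.61 ± 0.44). Rad54b, a helicase-like protein of recombination repair, was at 18.3, 29.4 and 26.4 against 40.3, 80.4 and 51.9 CPM (1.22 ± 0.34). It shares its locus with another gene in the deposited files.

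Mitochondrial proteins stood on both sides. Hspa9, the Hsp70 chaperone of the matrix (chromosome 18, 34937415 to 34954351), was at 113, 89.8 and 119 CPM in saline and 195, 269 and 144 in synuclein (0.92 ± 0.24). Car5a, a mitochondrial carbonic anhydrase, was at 45.02 to 51.7 CPM in saline and 76.5 to 126 in synuclein (1.13 ± 0.28), and Clybl, a mitochondrial lyase, at 6.84 to 13.9 and 23.2 to 43.3 (1.68 ± 0.51). Both share their loci with other genes in the files. On the lower side, Sco1, which delivers copper to cytochrome c oxidase (chromosome 11, 67052670 to 67067440), was at 42.1, 47.6 and 34.5 CPM in saline and 12.1, 13.7 and 21.8 in synuclein (−1.38 ± 0.37). Idh2, the NADP-dependent isocitrate dehydrogenase of the matrix (chromosome 7, 80094847 to 80115350), was at 92.5, 80.6 and 77.0 against 35.5, 49.6 and 45.1 CPM (−0.94 ± 0.29). Thg1l, the guanylyltransferase of histidine tRNA, was at −2.01 ± 0.56.

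Other higher genes serve membranes, secretion and signalling. Chga, the chromogranin of dense-core vesicles (chromosome 12, 102554969 to 102565027), was at 8.99, 9.97 and 7.18 CPM in saline and 17.2, 51.0 and 30.3 in synuclein (1.91 ± 0.52). Ankfy1, an effector of the early endosome GTPase Rab5, was at 42.9, 35.9 and 52.3 against 77.9, 99.6 and 94.4 CPM (1.05 ± 0.28). Rps6ka3, the kinase RSK2 downstream of ERK, was at 28.1 to 32.2 against 51.6 to 77.9 CPM (1.12 ± 0.30). Lmf2, a lipase maturation factor, Yaf2, a Polycomb partner, and Arhgap12, a GTPase-activating protein, had folds of 0.87 ± 0.24, 0.94 ± 0.26 and 1.32 ± 0.40. Slc35g2, Ttll1, a tubulin polyglutamylase, and Slc12a7, a potassium-chloride cotransporter, had folds of 1.70 ± 0.49, 1.83 ± 0.54 and 1.33 ± 0.40.

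The gene with the smallest p on the lower side was Grm5, the metabotropic glutamate receptor mGluR5 (chromosome 7, 87584168 to 88135063). It was at 42.9, 35.6 and 21.8 CPM in saline and 5.64, 5.76 and 11.6 in synuclein (−2.12 ± 0.48), and DESeq2 called it at an adjusted p of 0.0183. Ehhadh, a peroxisomal enzyme of fatty acid oxidation (chromosome 16, 21761285 to 21787834), was at 24.7, 21.9 and 11.2 against 0.282, 1.92 and 2.55 CPM (−3.57 ± 0.85). Bnc2, a zinc finger protein (chromosome 4, 84272542 to 84675086), was at 31.3, 19.1 and 24.1 against 3.95, 4.39 and 7.65 CPM (−2.21 ± 0.54). DESeq2 called both, at adjusted p-values of 0.0183 and 0.0422. In each of these 3 genes the lowest saline library lay above the highest synuclein library, as the choice of genes required.

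Several lower genes handle ubiquitin, phosphate or nutrient signals. Nedd4l, a ubiquitin ligase of membrane proteins, was at 72.8, 65.3 and 79.3 CPM in saline and 39.5, 37.3 and 37.4 in synuclein (−0.93 ± 0.24). Flcn, folliculin, which links lysosomal nutrient state to mTORC1, was at 76.6, 91.5 and 88.2 against 42.6, 45.3 and 28.6 CPM (−1.14 ± 0.30). Ppm1h, a phosphatase that removes LRRK2-dependent phosphate from Rab GTPases, was at 83.2, 80.4 and 65.5 against 42.6, 36.5 and 44.5 CPM (−0.89 ± 0.25). Nedd4l, Ppm1h and Sept6, a septin (−1.76 ± 0.47), share their loci with other genes. Garem, an adaptor of growth factor signalling, was at −2.66 ± 0.71, and Zfp239, Fndc7, Dcaf12l1 and Pabpc4l lay between −1.96 ± 0.57 and −1.66 ± 0.46. Without both synuclein libraries that lay apart, the folds ran from 0.44 to 1.93 on the higher side and from −2.89 to −0.77 on the lower, and the condition of no overlap fixes their direction.

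**Figure D2:**
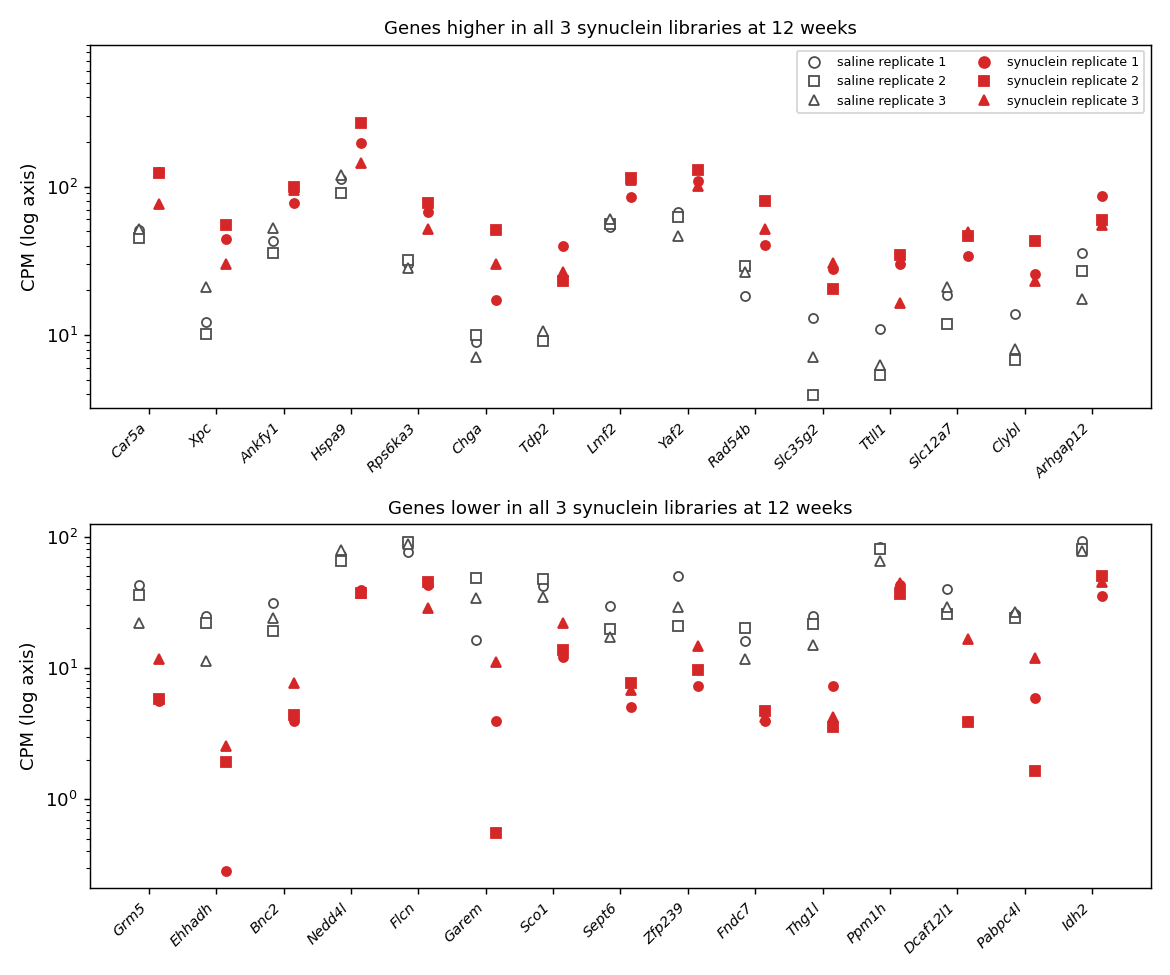
CPM (log axis) of the 15 genes on each side with the smallest p among those whose groups did not overlap at 12 weeks, with 1 symbol per library, open for saline and red for synuclein. Nedd4l lies at 37.3 to 39.5 CPM in synuclein, whereas Garem spreads from 0.548 to 11.0 CPM.

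A pair of genes was at or near 0 in saline at 12 weeks. Both share their loci with other genes in the files, and ribosomal protein genes have near-identical copies, so these values are uncertain. Rpl26, a protein of the large ribosomal subunit, was listed at 0 fragments in all 3 saline libraries at 12 weeks and at 16, 51 and 32 in synuclein. Summed over each group and against a floor of 3 fragments in saline, it was at least 24.4-fold higher in synuclein. Gm5512, an unnamed gene model given here after its values were seen, had 0, 0 and 1 fragments in saline and 45, 55 and 52 in synuclein, with the smallest edgeR adjusted p of all genes, 0.142. DESeq2 called both at an adjusted p of 0.0018. Its other lower calls, given after their values were seen, were Cd36, a fatty acid transporter, Hnmt, which inactivates histamine, Lad1, Pcdha3, Zfp81 and Gm38397, each at a mean under 10 CPM. The limma-trend fit called Rpl26 and the small nucleolar RNA Snora74a. Leaving out replicate 1 or replicate 3 of synuclein moved the count at an unadjusted p under 0.05 from 968 to 1939 and 1668.

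Cytosolic heat-shock chaperones, which hold and refold damaged proteins and include the Hsp70 machinery known to act on α-synuclein fibrils, lay higher in synuclein. Of 31 tested members 24 were higher and 7 lower, with a median fold of 0.41, against −0.03 for all genes. At an unadjusted p under 0.05, 8 were higher and 0 lower, and 6 had synuclein libraries all above saline, where the shares of all genes were 2.27% and 4.01%. None passed edgeR's test over all genes. The inducible Hsp70 gene Hspa1a (chromosome 17, 34969359 to 34972156) was at 6.09, 5.13 and 3.16 CPM in saline and 122, 5.21 and 8.79 in synuclein, a fold of 3.23 ± 0.87. Its near-identical copy Hspa1b was at 1.74, 7.41 and 1.72 against 137, 0.548 and 8.22 CPM, and reads of the pair may be split between them. In both genes the level in replicate 1 of synuclein exceeded every other library by more than 10 times.

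Replicate 1 of synuclein stood out among these genes. It was the highest of the 6 libraries for each of the 8 members at an unadjusted p under 0.05, and the list summed to 15390 CPM there, against 7840 to 8431 in saline and 10390 and 8562 in the other synuclein libraries. Hsph1, a nucleotide exchange factor of Hsp70, was at 61.5, 45.02 and 43.6 CPM in saline and 238, 74.0 and 44.8 in synuclein (1.25 ± 0.51). Dnajb1, the J-protein that starts Hsp70-driven disaggregation of α-synuclein, was at 63.2, 66.7 and 60.9 against 172, 82.6 and 61.5 CPM (0.73 ± 0.33). Hspa8, the constitutive Hsc70, was at 1647, 1755 and 1598 against 3910, 2462 and 1701 CPM (0.69 ± 0.28). Without replicate 1 the list's median was 0.30. Without replicates 1 and 2 it was 0.08, with 21 members higher and 10 lower, and Hsph1 and Dnajb1 were at −0.15 and −0.038.

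The 6 members that did not overlap included 2 of these 8. Dnaja1, a J-protein partner of Hsc70, was at 279, 263 and 233 CPM in saline and 663, 374 and 343 in synuclein (0.83 ± 0.27), and its locus is shared with another gene in the files. Stip1, which links Hsp70 to Hsp90, was at 94.5, 77.2 and 78.4 against 291, 96.3 and 102 CPM (0.97 ± 0.36). St13, the Hsc70-interacting protein, was at 55.0 to 62.6 against 64.0 to 102 CPM, and the small heat-shock proteins Hspb1 and Hspb8 at 202 to 435 against 485 to 647 and at 50.5 to 55.6 against 65.0 to 68.8 CPM. The polyubiquitin gene Ubb was at 1210 to 1549 against 1579 to 1646 CPM. Hsp90aa1 and Hsp90ab1, the cytosolic Hsp90 genes, had folds of 0.53 ± 0.32 and 0.61 ± 0.31, with the highest value in replicate 1 of synuclein.

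**Figure D3:**
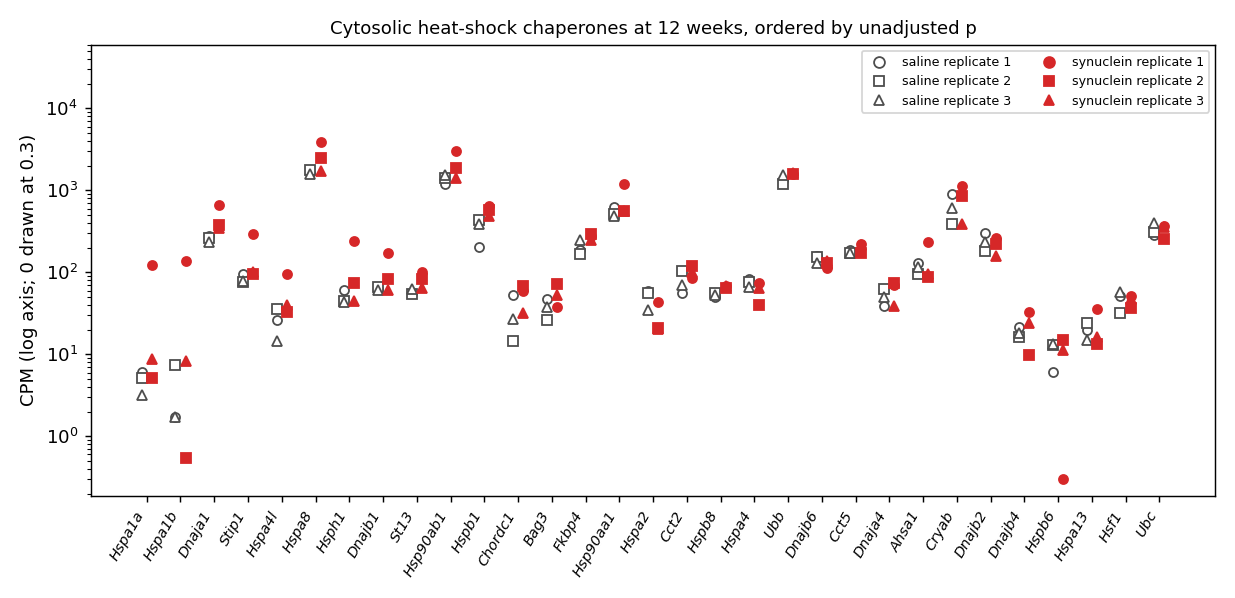
CPM (log axis) of the 31 tested cytosolic heat-shock chaperones at 12 weeks, ordered by unadjusted p, with 1 symbol per library, open for saline and red for synuclein. The red circles of replicate 1 of synuclein top the 8 genes at the left, with 122 CPM for Hspa1a, and the groups mix to the right.

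The promoters of 2 of these genes are shown because they carry a form of the core to which heat-shock factor 1 binds, printed in capitals. They were picked for that core. The core searched was GAANNTTC, which reads the same on both strands, in the 250 bases before each RefSeq start (GRCm38.p6). The windows of Hsph1, Dnajb1, Stip1 and Hspa4l, which were also highest in replicate 1, held no match to this form. Other arrangements of its GAA and TTC units were not searched, and both windows of Hsph1 hold TTCTCGAA.
Hspa1a, chr17:34972157-34972406, minus strand: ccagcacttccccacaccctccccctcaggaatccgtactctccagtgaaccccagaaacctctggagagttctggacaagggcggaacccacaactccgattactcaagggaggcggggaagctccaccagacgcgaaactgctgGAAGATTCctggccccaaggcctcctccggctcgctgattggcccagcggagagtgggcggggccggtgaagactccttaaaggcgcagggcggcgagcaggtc
Dnaja1, chr4:40722218-40722467, plus strand: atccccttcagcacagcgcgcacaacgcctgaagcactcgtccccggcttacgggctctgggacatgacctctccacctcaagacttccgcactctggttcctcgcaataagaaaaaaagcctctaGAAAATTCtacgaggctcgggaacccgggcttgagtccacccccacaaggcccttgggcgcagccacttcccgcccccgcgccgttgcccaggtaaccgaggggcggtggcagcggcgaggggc
The core began 104 bases before the start in Hspa1a and 124 in Dnaja1, which has further starts without a match. Of the 23 heat-shock genes with a window, 9 (39.1%) held it in at least 1 window, against 7.73% of the 27025 genes in the table. The 23 were counted whatever their fold, and a match describes the letters only.

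Folding genes of other compartments were split. In the endoplasmic reticulum list 18 of 29 members were higher (median 0.21). Xbp1, a transcription factor of the unfolded protein response, was at 93.1, 119 and 124 CPM in saline and 188, 210 and 141 in synuclein (0.68 ± 0.26). Hspa5, the chaperone BiP, was at 283, 282 and 270 against 766, 290 and 350 CPM (0.75 ± 0.29), again highest in replicate 1. Ern1, the sensor IRE1 that splices Xbp1 RNA, was at 12.8, 11.7 and 14.9 against 5.92, 3.29 and 5.38 CPM (−1.43 ± 0.61). Atf4, the factor of the integrated stress response, was at 0.56 ± 0.27, with groups that did not overlap. Without both libraries that lay apart, the median of the list was 0.01. Among 9 mitochondrial chaperones the median was 0.21, with Trap1, the mitochondrial Hsp90, at −0.83 ± 0.39. Of 31 proteasome subunits 20 were higher (median 0.09), and Psma1 and Psmd7, of the core and the lid, were at 0.55 ± 0.23 and 0.58 ± 0.26. Ribosomal proteins had 42 of 55 members higher, at a median of 0.12, and the nuclear-encoded respiratory chain 39 of 50, at 0.10, with no single gene but Rpl26 under an unadjusted p of 0.05. Replicate 2 of synuclein was the highest library for 43 of the 55 ribosomal genes. Without it 29 were higher, at a median of 0.005, and without replicate 1, the lowest library for 32, 51 were higher, at 0.32.

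Interferon-stimulated genes, which type I and II interferons induce against viruses and which microglia, vessels and neurons can express, lay higher for a subset of members. Of 30 tested, 21 were higher and 9 lower, with a median of 0.16. At an unadjusted p under 0.05, 5 were higher and 0 lower, and 3 had groups that did not overlap, beside 2.27% and 4.01% of all genes on the higher side. None passed edgeR's test over all genes. Rtp4, a chaperone of membrane receptors (chromosome 16, 23609919 to 23614222), was at 33.9, 46.5 and 68.6 CPM in saline and 71.4, 125 and 90.4 in synuclein (0.94 ± 0.30). Lgals3bp, a secreted galectin ligand, was at 27.3, 51.3 and 35.0 against 89.1, 51.6 and 84.2 CPM (0.98 ± 0.31). Stat2, a subunit of the factor that type I interferon activates (chromosome 10, 128270576 to 128292849), was at 37.1, 33.6 and 50.5 against 54.4, 78.7 and 65.7 CPM (0.71 ± 0.29). The groups of these 3 genes did not overlap, though Lgals3bp differed by only 0.3 CPM between its nearest libraries.

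Bst2, the tether that holds budding virus at the membrane (chromosome 8, 71534262 to 71537437), was at 26.7, 37.3 and 44.8 CPM in saline and 36.4, 108 and 74.0 in synuclein (1.01 ± 0.38). Irf7, which drives interferon production, was at 0.72 ± 0.35. Other induced genes did not follow: Ifit1, Ifit3 and Irf1 had folds of 0.08 ± 0.35, −0.09 ± 0.45 and −0.04 ± 0.35. Without both synuclein libraries that lay apart, 27 of the 30 were higher, at a median of 0.52. Replicate 1 of saline was the lowest library for 21 of the 30, and without it 16 were higher, at a median of 0.027. Without replicate 3 of synuclein 17 were higher, at 0.087. The 14 genes of MHC class I presentation, which interferon also induces, had 11 higher at a median of 0.41, with H2-D1 at 540, 799 and 1227 against 622, 1409 and 1823 CPM. Without replicate 1 of saline their median was 0.16, and without replicate 3 of synuclein it was 0.13, with 8 higher. Their groups all overlapped, and B2m (0.54 ± 0.31) and H2-D1 share their loci with other genes.

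The promoters of Bst2 and Stat2 are shown because both hold a pair of GAAA half-sites 2 bases apart, the form of the element bound by the interferon-activated factor that contains STAT2. The search covered both strands of the same windows, and capitals mark the matches, which overlap in Bst2 and lie on the opposite strand in Stat2. The window of Lgals3bp held no match, and Rtp4 had no window.
Bst2, chr8:71537473-71537722, minus strand: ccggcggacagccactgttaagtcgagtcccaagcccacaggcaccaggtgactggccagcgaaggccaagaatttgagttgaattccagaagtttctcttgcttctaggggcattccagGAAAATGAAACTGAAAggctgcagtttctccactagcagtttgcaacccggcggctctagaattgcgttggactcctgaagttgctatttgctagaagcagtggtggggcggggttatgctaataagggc
Stat2, chr10:128270248-128270497, plus strand: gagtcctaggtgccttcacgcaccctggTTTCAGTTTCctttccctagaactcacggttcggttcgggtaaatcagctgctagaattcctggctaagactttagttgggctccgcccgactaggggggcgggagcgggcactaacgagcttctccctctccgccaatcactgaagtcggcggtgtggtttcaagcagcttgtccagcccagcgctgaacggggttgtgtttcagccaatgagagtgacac
The matches in Bst2 began 130 and 124 bases before the start and that in Stat2 222 bases. Of 23 interferon-stimulated genes with a window, 12 (52.2%) held such a pair, against 3.46% of the 27025 genes. The 23 were counted whatever their fold, so the share describes the list and not the synuclein difference.

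Endothelial markers lay on the same side as the interferon genes. All 18 had a positive fold at 12 weeks, at a median of 0.29, though that of Cdh5, the adhesion protein of their junctions, was 0.001, and none had an unadjusted p under 0.05 or groups that did not overlap. Their sum was 16380, 22430 and 22750 CPM in saline and 18400, 28740 and 29990 in synuclein. Tek, an angiopoietin receptor, was at 0.51 ± 0.32, Slc2a1, the glucose transporter of the blood-brain barrier, at 0.51 ± 0.32, and Pecam1, an endothelial adhesion protein, at 0.50 ± 0.33. Bsg and Ly6c1, the members with the highest means, were at 0.38 ± 0.29 and 0.35 ± 0.29. Without both libraries that lay apart all 18 folds were positive, at a median of 0.49. Replicate 1 of saline was the lowest library for 13 of the 18, and without it 13 folds were positive, at 0.22. Without replicate 3 of synuclein 12 were positive, at 0.18. The part of endothelial RNA in the interferon and MHC values was not tested. The 2 lists also shared their sign at 7 weeks, when 24 of the 30 interferon genes and all 18 endothelial markers were lower in synuclein, at medians of −0.18 and −0.25.

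**Figure D4:**
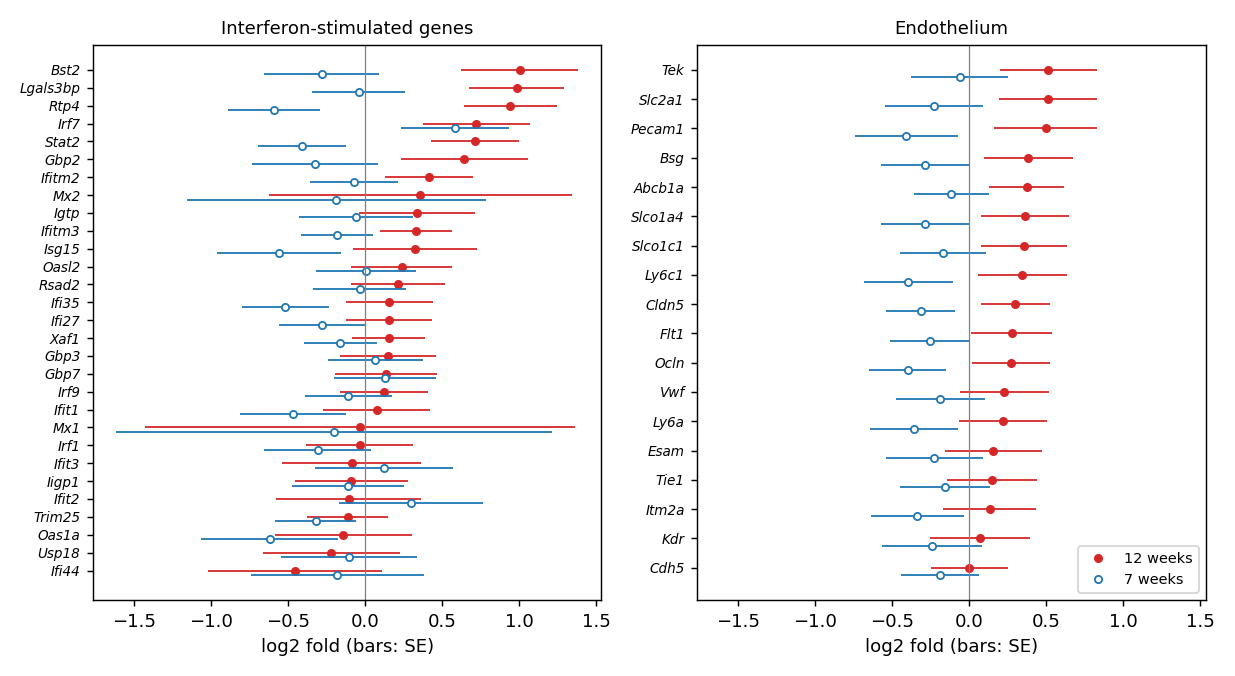
Log2 fold of synuclein against saline for interferon-stimulated genes (left, 1 of them not shown) and endothelial markers (right), red at 12 weeks and blue at 7 weeks, with bars of 1 standard error. The endothelial markers lie right of 0 at 12 weeks, except Cdh5, which lies on it, and left of it at 7 weeks, and Bst2, Lgals3bp and Rtp4 lead the interferon genes at 12 weeks.

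Glial markers differed by type. Gfap, the filament protein of reactive astrocytes (chromosome 11, 102887336 to 102897200), was at 8.12, 14.0 and 6.89 CPM in saline and 31.0, 24.1 and 26.1 in synuclein (1.48 ± 0.59), and Ntsr2, an astrocytic neurotensin receptor, at 12.8, 21.9 and 17.8 against 22.9, 85.8 and 36.8 CPM (1.47 ± 0.59). Both had groups that did not overlap, while the other astrocyte markers mixed: over 17 the median was 0.26, with Aldoc, their glycolytic enzyme, at 0.01 ± 0.30 and Aqp4, their water channel, at −0.94 ± 0.56. Microglial markers lay lower, with 14 of 19 lower at a median of −0.88, at levels near the limit of detection for several. P2ry13 and P2ry12, purinergic receptors of resting microglia that share their loci with other genes, were at 0.58, 2.28 and 7.18 against 0, 0.274 and 0.283 CPM and at 5.51, 0.855 and 6.60 against 0, 0 and 1.42 CPM. Replicate 3 of saline was the highest library for 11 of the 19, and without it the median was −0.153. Without both synuclein libraries that lay apart it was −0.042, with 9 of 19 higher.

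Of 16 oligodendrocyte markers 13 were lower, at a median of −0.18. Without replicate 1 of saline the median was 0.071, with 9 higher, and without both synuclein libraries that lay apart it was −0.41, with 0 of 16 higher. Mag, an adhesion protein of myelin, was at 2443, 1002 and 2091 CPM in saline and 1654, 1132 and 1113 in synuclein (−0.51 ± 0.30). Replicate 2 of saline was low and overlapped the synuclein group. Precursors of these cells had a median of −0.03. Among pericyte and smooth muscle genes the median was −0.36: Kcnj8, a potassium channel of pericytes, was at 43.2, 37.0 and 16.4 against 9.87, 1.37 and 14.5 CPM (−1.91 ± 0.64), while Higd1b, another pericyte gene, was at 14.9 to 16.5 against 26.4 to 34.4 CPM. Meningeal and collagen genes had 10 of 13 higher at 0.54, with Fn1, fibronectin, at 322, 443 and 449 against 467, 500 and 858 CPM. Without both libraries that lay apart 7 of the 13 were higher, at 0.23. Col4a2, a collagen of vessel walls, was at 0.65 ± 0.30.

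The remaining cell-type lists held few reads or turned on 1 library. Ependymal and choroid plexus genes had a median of 0.15, which was −1.79 without replicate 1 of synuclein, where Rarres2 stood at 217 CPM against 4.66 to 96.3 elsewhere. Tph2, the serotonin-making enzyme of raphe neurons, was at 152 CPM in replicate 2 of synuclein against 0.567 to 11.7 in the other 5, and the list of serotonergic, noradrenergic and cholinergic neurons had a median of 0.05. Complement, perivascular macrophage, erythroid and lymphocyte genes had medians of 0.12, −0.20, −0.30 and −1.01, and GABA and glutamate neurons 0.17, with the neuropeptide gene Cck at 27.0, 16.8 and 17.8 CPM in saline and 11.9, 10.7 and 11.3 in synuclein (−0.86 ± 0.38).

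Immediate early genes, which neurons and glia switch on within minutes of a stimulus, had 16 of 23 members higher at a median of 0.27. Ier2 (chromosome 8, 84661331 to 84662852) was at 68.4, 76.7 and 90.2 CPM in saline and 99.3, 179 and 128 in synuclein (0.79 ± 0.26), and Fosl2, a partner of Jun, at 18.9, 19.7 and 6.60 against 29.6, 38.1 and 30.3 CPM (1.12 ± 0.43). Both had groups that did not overlap, and folds of 0.71 and 1.02 without the libraries that lay apart. Arc, a synaptic member, lay the other way at −0.73 ± 0.37. In the list of p53 targets and BCL2 relatives 19 of 26 were higher (median 0.37), and 15 without both libraries that lay apart (median 0.12). Bcl2l1, the survival protein BCL-XL, which shares its locus with another gene, was at 234, 180 and 186 against 278, 289 and 325 CPM (0.57 ± 0.25), Fas, a death receptor, at 0.89 ± 0.36, and Bid, a death promoter, at −2.25 ± 0.95.

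Genes of inherited parkinsonism and the synuclein family centred on a median of 0.07, with 11 of 19 higher, and on −0.095, with 9 higher, without both libraries that lay apart. Pla2g6, a phospholipase whose loss causes dystonia-parkinsonism, was at 17.1, 15.7 and 16.4 CPM in saline and 34.7, 38.4 and 32.0 in synuclein (1.09 ± 0.40). Atp13a2, a lysosomal polyamine transporter, was at 53.1, 45.3 and 64.6 against 43.7, 38.4 and 37.4 CPM (−0.45 ± 0.31), so both had groups that did not overlap. Pink1, a kinase that marks damaged mitochondria and shares its locus with another gene, was at 0.29 ± 0.23. Lysosomal and autophagy genes had medians of −0.02 and −0.02. Gaa, a lysosomal hydrolase, was at 0.72 ± 0.34, and Sqstm1, the autophagy receptor p62, at 0.06 ± 0.20, with 587 to 719 CPM in saline and 638 to 733 in synuclein.

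Neuronal lists showed single genes rather than shifts of the whole. In synaptic vesicle release the median over 29 genes was 0.03: Dnm1, which cuts endocytic vesicles free, was at 16.0, 14.3 and 14.6 CPM in saline and 19.8, 38.1 and 31.2 in synuclein (0.99 ± 0.38), and Snap25, a SNARE protein, at 0.66 ± 0.32. Dnm1 shares its locus with another gene. Among 20 pacemaker, calcium and potassium channels (median −0.15), Scn8a, a sodium channel that sustains firing, was at 43.5, 29.6 and 26.4 against 25.4, 5.21 and 11.6 CPM (−1.24 ± 0.51). Kif5b, the heavy chain of kinesin-1, was at 267, 311 and 308 against 339, 529 and 396 CPM (0.51 ± 0.23) within an axonal cytoskeleton list at 0.08, and axon injury genes were at 0.06. Igf1, a growth factor, was at 23.2, 29.9 and 19.8 against 14.95, 8.50 and 12.8 CPM (−1.01 ± 0.46), and its receptor gene Igf1r at 428 to 512 against 588 to 691 CPM (0.46 ± 0.29), among 18 neurotrophic genes at −0.12.

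In metabolism, 17 of 27 cholesterol and fatty acid synthesis genes were lower (median −0.14). Without both libraries that lay apart the median was −0.24, and without replicate 1 of saline it was 0.07, with 16 of 27 higher. Idi1, an enzyme early in the pathway, was at 88.7, 61.55 and 72.4 CPM in saline and 58.1, 11.5 and 53.8 in synuclein (−0.85 ± 0.41), with groups that did not overlap. Antioxidant genes had a median of −0.06, iron genes 0.12, and cell cycle genes 0.32, with 9 of 16 higher. Without both libraries that lay apart the cell cycle median was −0.077, with 8 higher. It was 0.066 without replicate 1 of saline and 0.656 without replicate 2 of saline. Birc5, survivin, was at 106, 86.9 and 52.8 against 64.9, 37.8 and 42.8 CPM (−0.76 ± 0.32). The plot of list medians shows that the crosses, drawn without both libraries that lay apart, sat far from the red points for the ependymal, monoaminergic, lymphocyte and microglial lists.

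**Figure D5:**
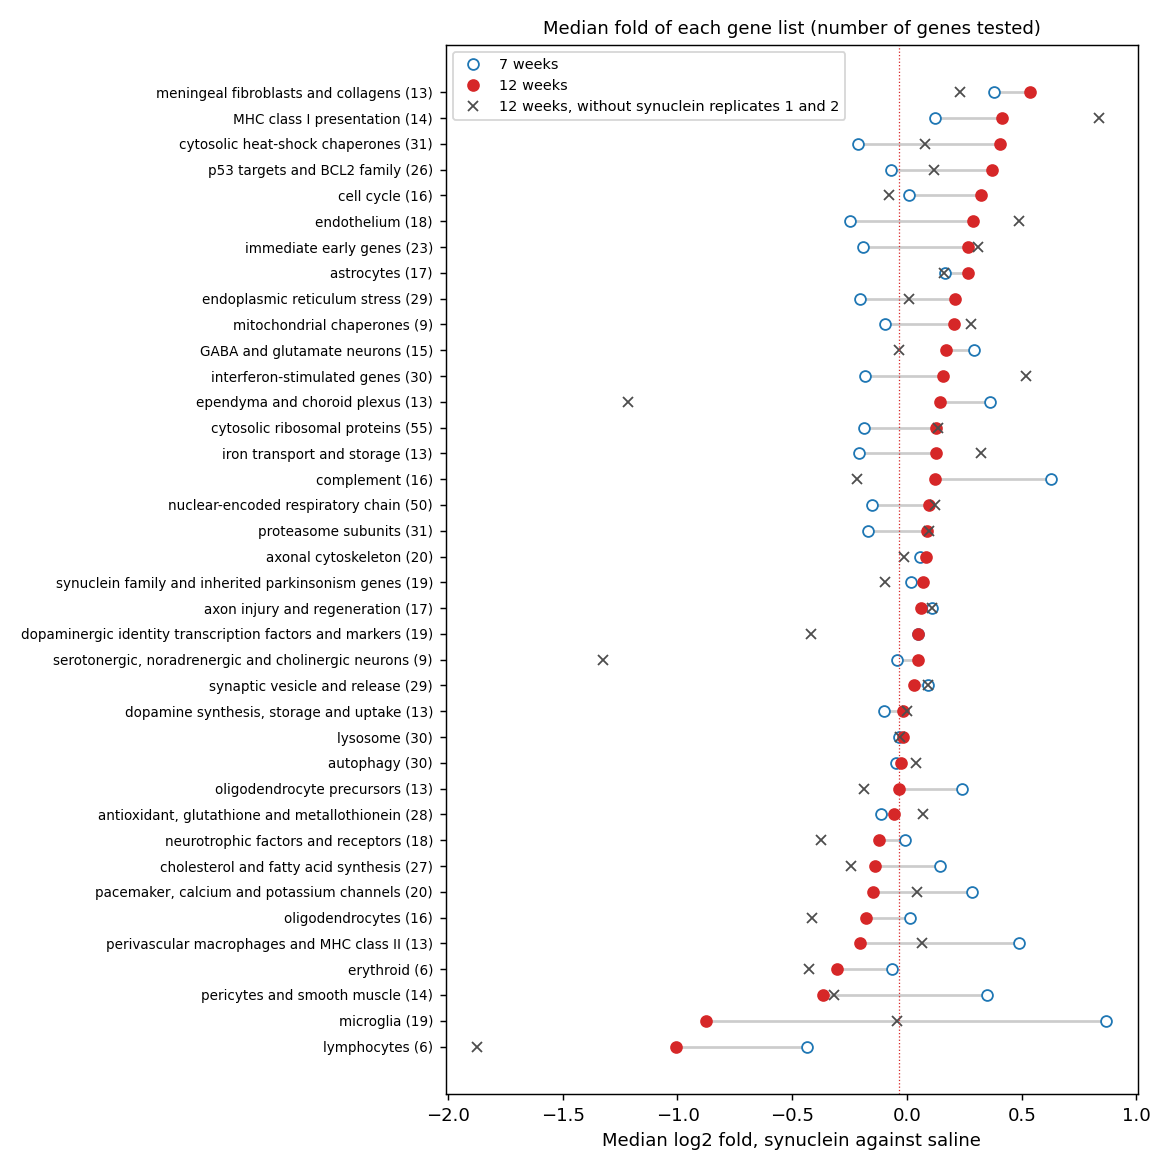
Median log2 fold of synuclein against saline for each of the 38 gene lists, red at 12 weeks, blue at 7 weeks, with crosses for 12 weeks without synuclein replicates 1 and 2; the dotted line marks the median of all genes at 12 weeks. Heat-shock, endothelial and immediate early lists lie right of 0 at 12 weeks and left of it at 7 weeks, and the microglial list the other way. The microglial sum at 7 weeks was 782.5 CPM in replicate 3 of synuclein against 147.1 to 311.7 in the other libraries of that time.

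The synuclein difference at 12 weeks was also set against that at 7 weeks, with no library in common. No gene differed between the times in edgeR's test of the difference (0% of 17380), with 303 (1.74%) more positive and 477 (2.74%) more negative at 12 weeks at an unadjusted p under 0.05. DESeq2 and limma-voom also called 0. At 7 weeks the synuclein libraries all lay above saline for 817 genes (4.7%) and all below for 652 (3.75%). Of the 1159 genes all below at 12 weeks, 92 (7.94%) were all above at 7 weeks and 27 (2.33%) all below. Of the 697 all above at 12 weeks, 35 (5.02%) were all below at 7 weeks and 18 (2.58%) all above. Taken from the 7-week side, the 92 were 11.3% of 817 and the 35 were 5.37% of 652, against 2.2% and 4.14% for genes on the same side at both times.

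Ier2 was on opposite sides at the 2 times. At 7 weeks it was at 118, 132 and 162 CPM in saline and 73.2, 90.2 and 66.3 in synuclein, a fold of −0.84 ± 0.26, so the difference between the times was 1.63 ± 0.37 (edgeR adjusted p = 0.952). Hspa5 was at 421, 471 and 343 CPM in saline at 7 weeks and 302, 253 and 260 in synuclein, a fold of −0.60 ± 0.29 against 0.75 ± 0.29 at 12 weeks. Rtp4 was at 89.3, 140 and 148 against 73.8, 87.6 and 89.7 CPM at 7 weeks (−0.59 ± 0.30). In these 3 genes the saline libraries at 12 weeks lay below those at 7 weeks, and the synuclein libraries of Ier2 lay above them, from 66.3 to 90.2 CPM at 7 weeks to 99.3 to 179 at 12. Nedd4l was on the other side, at 0.40 ± 0.24 at 7 weeks and −0.93 ± 0.24 at 12. Eif4b, a translation initiation factor, was at −0.41 ± 0.21 and 0.60 ± 0.21. Mis12, of the kinetochore, which shares its locus with another gene, was at −0.95 ± 0.43 and 1.35 ± 0.43. Without both synuclein libraries that lay apart, the 12-week folds were 0.62 for Eif4b and 0.57 for Mis12. Both genes were chosen here after their values were seen.

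Several housekeeping lists also had small medians of opposite sign at the 2 times. Ribosomal proteins had 4 of 55 members higher at 7 weeks and 42 of 55 at 12 (29 without replicate 2 of synuclein). For the respiratory chain the counts were 6 and 39 of 50, and for the proteasome 6 and 20 of 31. Heat-shock chaperones had 6 and 24 of 31 higher, at medians of −0.21 and 0.41. Their 12-week median was 0.08, with 21 higher, without replicates 1 and 2 of synuclein. At 7 weeks replicate 3 of saline held the highest ribosomal sum, 18130 CPM against 13260 to 15400 in the other libraries of that time. It was also highest for the respiratory chain (13670 against 9627 to 12730) and the proteasome (6562 against 4462 to 5116). For heat-shock chaperones replicate 2 of saline was highest, at 12190 against 7258 to 10060. Leaving out a library at 7 weeks was not tested. Microglial genes had 16 of 19 higher at 7 weeks (median 0.87) and 5 of 19 at 12 (median −0.153 without replicate 3 of saline). Their 7-week sum was 189.8, 147.1 and 311.7 CPM in saline and 300.2, 203.8 and 782.5 in synuclein, so replicate 3 of synuclein stood out. Chga was at 26.0, 28.8 and 32.7 CPM in saline at 7 weeks and 137, 55.2 and 25.7 in synuclein, a fold of 1.31 ± 0.49. Tdp2 was at 0.55 ± 0.43 at 7 weeks. The groups of both overlapped then, and replicate 3 of synuclein was below every saline library for Chga. The 7-week folds of Xpc, Ankfy1 and Idh2 were 0.05 ± 0.39, −0.12 ± 0.27 and −0.27 ± 0.29. For Idh2, saline at 12 weeks (77.0 to 92.5 CPM) lay above all libraries at 7 weeks (30.05 to 63.4). Synuclein at 12 weeks (35.5 to 49.6) lay within them. For Ankfy1, saline at 12 weeks (35.9 to 52.3 CPM) lay just below all libraries at 7 weeks (52.6 to 86.0), and synuclein reached above (77.9 to 99.6). For Xpc, synuclein at 12 weeks (30.3 to 54.9 CPM) lay above all libraries at 7 weeks (20.2 to 25.8).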

How the data were processed

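RNA was measured in 12 libraries, of which 6 enter the main comparison. Per the submitters' processing notes, the tools were TopHat2 2.0.13, Bowtie2 2.2.3 and Cufflinks 2.2.1. For the build, nothing is stated in the labels or headers; gene loci lie where the GRCm38 annotation has them and are read as that build, with deposited starts moved by 1 base. The authors deposited estimated counts and FPKM for 24346 genes. The deposited counts had been scaled: in each library 98.8% to 99.0% were whole multiples, within 0.02, of 1 step (0.685 to 1.30), and dividing by it gave the fragments. In the files 5567 genes share their locus with another gene, and antisense reads cannot be told apart. The estimated counts as deposited were rounded, filtered by filterByExpr and scaled by TMM. The fit by edgeR 4.0.16 (R 4.3.3) had 1 mean per group over 12 libraries, leaving 8 residual degrees of freedom, and a biological CV of 46.6% in common. Calls needed an adjusted p under 0.05. The median standard error was 0.53 over all genes and 0.26 above 100 CPM. Same-numbered libraries at 12 weeks did not deviate together (correlations of −0.0316 to 0.0525), so no block was used. The procedure was tested on simulated data. DESeq2 1.42.0, limma 3.58.1 (voom, and trend on log2(FPKM + 1) of the deposited FPKM) and the other settings are alternatives.

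The members and the 38 gene lists, with 785 of 820 entries tested, were chosen with earlier results of these data known. Genes were named by rule: 15 per direction as described, Th, Slc6a3, Slc18a2 and Ddc, and per list up to 4 members with the smallest p and up to 2 with the highest mean. Some genes the rule takes are not reported here. Gene models, small RNAs and spans under 200 bases were left out of the 15.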

Additional observations from a re-analysis of the deposited data

How the results depend on the processing

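The 0 genes called at 12 weeks stayed 0 in every setting run but 2: DESeq2 called 12 and limma-trend on log2(FPKM + 1) called 2. The 968 genes at an unadjusted p under 0.05 became 534 when only the 6 libraries at 12 weeks were fitted, and ranged from 704 to 1939 when each library was left out in turn (1939 without replicate 1 of synuclein, 1668 without replicate 3). The cause was not tested. Of the 968, 40.7% were higher; the share was 27.3% with upper-quartile scaling, 30.7% with limma-trend, 51.5% with a minimum of 10 CPM in 3 libraries and 55.1% with only the 6 libraries, and limma-voom had 341 higher and 1022 lower. With the replicate block, for which the data gave no pairing, 0 genes were called and 1099 had an unadjusted p under 0.05. The difference between the times had 0 calls in each setting run; the fit of only the 6 libraries cannot give it.

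Of the gene folds recomputed, 720 kept direction and side of the threshold, 4 (Xpc, Grm5, Ehhadh and Bnc2, by DESeq2) passed it and 11 reversed. Most belong to the 30 genes chosen for groups that did not overlap, whose direction cannot turn when a library is left out, so this count is no sign of stability. Leaving out each library in turn, Th ranged from −0.441 to 0.088, Slc6a3 from −0.744 to 0.019, Slc18a2 from −0.449 to 0.518 and Ddc from −0.219 to 0.071, each highest without replicate 1 of saline. Slc18a2 was at 0.099 with the replicate block and 0.019 in limma-trend. Dnajb1 was at −0.038 and Hsph1 at −0.150 without replicates 1 and 2 of synuclein, a setting chosen after seeing the data. Single libraries moved several list medians: microglia from −0.875 to −0.153 without replicate 3 of saline, ribosomal proteins from 0.125 to 0.005 without replicate 2 of synuclein and to 0.322 without replicate 1, and interferon genes from 0.158 to 0.027 without replicate 1 of saline. Without both synuclein libraries that lay apart, heat-shock chaperones were at 0.080.

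With 3 libraries a group, the median standard error of a fold was 0.53 over all genes and 0.26 above 100 CPM, which limits the differences that could be detected.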
